A study of Mus musculus with 12 samples.

Results

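The elastic fiber genes on the panel were examined in WT and PKN2 KO pancreatic stellate cells (PSCs), the resident fibroblasts of the pancreas. The members were listed by name as Fbn1, Fbln2, Fbln5, Efemp1 and Efemp2, and all 5 were found among the 420 genes in the files. All 5 also passed the filter on low values, which left 238 genes to test (3 or more libraries with 10 or more normalized counts). The 12 libraries fell into 4 groups of 3. These were WT PSCs with vehicle, PKN2 KO PSCs with vehicle, WT PSCs with 5 ng/ml TGF-β1 and PKN2 KO PSCs with 5 ng/ml TGF-β1, each for 72 h. TGF-β1 is the cytokine most used to drive fibroblasts into contractile, matrix-depositing myofibroblasts, and PKN2 is a protein kinase. By the study's methods, the cells came from the pancreas of a male C57BL/6 mouse with Rosa26-CreERT2 and PKN2 fl/fl and were immortalized with SV40 large T. The KO cells were made by treating that population with 4-hydroxytamoxifen, which activates CreERT2, a Cre recombinase expressed from the Rosa26 locus. Whether the WT cells were exposed to 4-hydroxytamoxifen, and the age of the mouse, are not given in the sources used here. The series describes several cell lines per genotype, whereas the methods name a single mouse, so the libraries of a group cannot be taken as different animals, and the p-values measure the spread between these libraries, which may be technical. Pkn2 is not among the genes listed, so the deletion could not be examined here.

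Elastic fibers have a core of crosslinked elastin on a scaffold of fibrillin microfibrils. Fibulins are secreted glycoproteins with chains of calcium-binding EGF-like repeats, and several of them bind tropoelastin, fibrillin or lysyl oxidases and guide the assembly of the fiber. Fibrillin microfibrils also bind latent TGF-β complexes, so they both hold the cytokine in the matrix and form part of the matrix that fibroblasts make in response to it. Elastin itself is not among the genes listed.

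Efemp1 and Fbln5 fell strongly with TGF-β1 in both genotypes, Fbn1 rose in WT PSCs, and Fbln2 and Efemp2 passed the test in no comparison. In PKN2 KO PSCs Fbn1 changed by 0.32 on the log2 scale and did not pass. A difference between genotypes in the response of Fbn1 was not shown (interaction -0.90; limma, adjusted p = 0.49). Of the 5 members, Efemp1 was the one that passed the test between genotypes, at a lower level in PKN2 KO PSCs both in vehicle and after TGF-β1. Each of these calls was kept in only 2 of 6 fits that left out 1 library of the comparison. The call in vehicle was also lost without the trend of the variance, and that after TGF-β1 with edgeR and DESeq2.

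The panel took up from 1074095 to 1473153 counts in a library. The authors' normalized counts were the counts divided by 1 factor per library, from 0.731 to 1.48. In every group the library lettered B had the highest factor (1.16 to 1.48, against 0.731 to 1.04 in the other 8 libraries). It was also the lowest library of its group in all 4 groups for Fbn1, Fbln2, Fbln5 and Efemp2, and in 3 of 4 for Efemp1, as it was in all 4 groups for 86 of the 238 genes tested (36.1%). The part of this factor in the spread of the members was not tested. Ratios of members within a library, which no factor changes, are therefore given as well. The labeled cell type was checked with marker lists. The 7 fibroblast or stellate genes, led by Col1a1 and Sparc, summed to between 279054 and 422542 counts per library, although Dcn reached at most 52 counts and Lum at most 5. The 5 endothelial genes summed to at most 31 counts, with Mmrn1 at 0, the 4 epithelial genes to at most 35 and the 6 leukocyte genes to at most 35, with Itgal at 0. The leukocyte sum moved with treatment, from 16.3 to 33.9 normalized counts in the 6 vehicle libraries to 4.30 to 11.0 in the 6 with TGF-β1, and its part in the changes of the members was not tested. This sum rested mostly on Itgb2, which reached 34 counts in a library, while Selplg reached 2 and Itgam, Itgax and Siglec1 reached 1. On so few counts of mainly 1 gene, no change in the number of leukocytes is read from it. In bulk RNA, fewer cells of a type and less RNA per cell cannot be told apart.

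Promoter sequences are shown for the genes that fell, Efemp1 and Fbln5, and for Efemp2, a close relative that passed the test in no comparison. Each is the 249 bases that end 2 bases before a RefSeq transcript start (GRCm38.p6), written 5′ to 3′ on the strand of the gene. For Fbn1 and Fbln2 the same window lies inside annotated exons and is not shown. Capitals mark matches to 4 motifs searched on both strands, which do not overlap one another here. The TEAD motif was spelled GGAATG. For SMAD factors the letters were CAGAC. AP-1 was searched as TGANTCA, where N is any base. The TATA box was spelled TATAAA. Fbln5 has 2 RefSeq starts, an upstream one and a downstream one.
Efemp1, chr11:28852955-28853203, plus strand: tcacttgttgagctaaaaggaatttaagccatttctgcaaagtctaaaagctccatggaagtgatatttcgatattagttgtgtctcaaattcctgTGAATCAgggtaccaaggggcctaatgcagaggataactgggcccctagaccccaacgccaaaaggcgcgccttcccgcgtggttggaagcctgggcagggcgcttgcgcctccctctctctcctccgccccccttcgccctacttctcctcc
Fbln5 upstream, chr12:101819121-101819369, minus strand: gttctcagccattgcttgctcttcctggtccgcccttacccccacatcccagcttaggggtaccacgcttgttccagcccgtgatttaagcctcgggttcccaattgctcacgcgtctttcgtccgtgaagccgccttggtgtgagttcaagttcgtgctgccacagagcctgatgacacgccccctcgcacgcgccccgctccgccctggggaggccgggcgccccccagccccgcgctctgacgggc
Fbln5 downstream, chr12:101818486-101818734, minus strand: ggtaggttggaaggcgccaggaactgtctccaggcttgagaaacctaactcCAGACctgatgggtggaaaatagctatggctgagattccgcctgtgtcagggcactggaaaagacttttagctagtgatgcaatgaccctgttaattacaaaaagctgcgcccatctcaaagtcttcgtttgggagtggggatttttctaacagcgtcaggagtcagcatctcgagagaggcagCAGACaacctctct
Efemp2, chr19:5473696-5473944, plus strand: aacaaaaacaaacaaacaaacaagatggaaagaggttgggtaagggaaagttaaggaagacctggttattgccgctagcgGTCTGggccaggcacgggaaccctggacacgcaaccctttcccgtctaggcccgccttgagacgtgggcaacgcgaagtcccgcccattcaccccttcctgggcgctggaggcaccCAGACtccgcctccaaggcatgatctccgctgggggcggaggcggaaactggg

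By the GENCODE M21 annotation, the Efemp1, Fbln5 upstream and Efemp2 windows overlap no gene, and the Fbln5 downstream window lies within Fbln5, in an intron except for 1 exonic base. The Efemp1 window held 1 AP-1 match, TGAATCA, 154 to 148 bases before the start. The Fbln5 downstream window held 2 SMAD matches and the upstream window held no match to the 4 motifs. Efemp2 has 3 RefSeq starts, and the window of the first of them, shown here, also held 2 SMAD matches. The windows of the other two, which reach into exons and are not shown, held 0 matches. Among 32851 RefSeq windows of the same length, 42.1% held a SMAD match, 12.6% a TEAD match, 12.4% a TATA match and 6.74% an AP-1 match. A match is a description of these letters and not a binding site.

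Efemp1 encodes fibulin-3, a secreted protein of basement membranes and loose connective tissue, known for a mutation that causes an inherited macular dystrophy. The gene (ENSMUSG00000020467) lies on chromosome 11, 28853204 to 28926743, on the plus strand of GRCm38. In WT PSCs with vehicle its normalized counts were 6322, 4155 and 5900 in libraries A, B and C. In PKN2 KO PSCs with vehicle they were 3007, 2559 and 3678. After TGF-β1 they were 40.1, 24.5 and 43.2 in WT PSCs and 19.1, 19.8 and 19.5 in PKN2 KO PSCs. No group overlapped another, and the order of the levels was WT vehicle, PKN2 KO vehicle, WT TGF-β1 and PKN2 KO TGF-β1, from high to low. In that order the means were 5459 ± 1149 (SD, n = 3), 3081 ± 563, 36.0 ± 10.0 and 19.5 ± 0.315. Behind the lowest values stood 31 to 45 counts per library in WT and 14 to 23 in PKN2 KO PSCs, so the small SD of the last group is narrower than counting error alone would give. As a share of all panel counts, which uses no normalization factor, Efemp1 took 0.478% ± 0.0529 (SD, n = 3) in WT vehicle and 0.259% ± 0.0207 in PKN2 KO vehicle libraries. Its shares with TGF-β1 were 0.00262% ± 0.00042 and 0.00148% ± 0.000401.

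With TGF-β1, Efemp1 fell by 7.22 on the log2 scale in WT PSCs (standard error 0.23; limma, adjusted p = 6.66e-12), and the change was -7.22 in PKN2 KO PSCs (limma, adjusted p = 6.75e-12). Fold changes here are on the scale of log2(normalized count + 1), which understates the change of low genes. These corresponded to levels 150-fold and 149-fold lower, and in each genotype the gene was ranked 1 of 238 from the most lowered. The interaction of genotype and TGF-β1, which asks whether the fall differed between genotypes, was 0.01 with a 95% interval from -0.69 to 0.70. A difference within this interval was not excluded by these libraries.

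Between genotypes, Efemp1 was 1.76-fold lower in PKN2 KO PSCs in vehicle (log2 fold change -0.82, 95% interval -1.31 to -0.33; limma, adjusted p = 0.028). It was 1.75-fold lower after TGF-β1 (-0.81, 95% interval -1.30 to -0.32; adjusted p = 0.026). It was ranked 6 of 238 from the lowest in vehicle and 21 of 238 after TGF-β1. The call in vehicle was kept with TMM, median-of-ratios and total count scaling (log2 fold changes of -1.03, -1.05 and -0.88), and was lost without the trend of the variance (adjusted p = 0.063) and without WT library A or C or PKN2 KO library A or B (up to 0.12). The call after TGF-β1 was lost with edgeR (adjusted p = 0.069) and DESeq2 (0.055), and without WT library A or C or PKN2 KO library A or C (up to 0.13).

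Fbln5 encodes fibulin-5, an integrin-binding fibulin that organizes elastin on microfibrils and without which mice develop loose skin and stiff vessels. The gene (ENSMUSG00000021186) lies on chromosome 12, 101746565 to 101819055, on the minus strand. Its normalized counts were 2588, 1511 and 1798 in WT vehicle libraries A, B and C, and 2345, 1599 and 2477 in PKN2 KO vehicle libraries. After TGF-β1 they were 522, 255 and 382 in WT and 332, 181 and 247 in PKN2 KO PSCs. All 6 libraries with TGF-β1 lay below all 6 with vehicle, and the 2 genotypes overlapped in both conditions. The vehicle means were 1966 ± 558 (SD, n = 3) for WT and 2140 ± 473 for PKN2 KO PSCs. Those with TGF-β1 were 386 ± 133 and 253 ± 75.7. Of all panel counts, Fbln5 took 0.171% ± 0.0287 and 0.178% ± 0.00769 in vehicle and 0.0278% ± 0.00455 and 0.0182% ± 0.000983 with TGF-β1, for WT and PKN2 KO PSCs.

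With TGF-β1, Fbln5 fell by 2.37 on the log2 scale in WT PSCs (standard error 0.29; limma, adjusted p = 8.29e-06), to a level 5.16-fold lower. In PKN2 KO PSCs it fell by 3.09 (adjusted p = 6.02e-07), to a level 8.52-fold lower. The interaction was -0.72 (95% interval -1.62 to 0.17, adjusted p = 0.57). The genotypes differed by 0.13 in vehicle (adjusted p = 0.83). Their difference with TGF-β1 was -0.59 (95% interval -1.22 to 0.04, adjusted p = 0.20), and this difference passed the threshold with TMM scaling (-0.79, adjusted p = 0.027), median-of-ratios scaling (-0.71, 0.046) and total count scaling (-0.60, 0.0086).

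Fbn1 encodes fibrillin-1, the main subunit of adult microfibrils and the gene mutated in Marfan syndrome. The study also lists it among YAP targets. The gene (ENSMUSG00000027204) lies on chromosome 2, 125300594 to 125507993, on the minus strand, and exons of Gm9913 overlap it on the opposite strand, so reads of these genes could not be told apart if the counting did not use strand. Its normalized counts were 2412, 1316 and 1593 in WT vehicle libraries A, B and C and 2178, 1822 and 2229 in PKN2 KO vehicle libraries. After TGF-β1 they were 5493, 2888 and 3968 in WT and 3243, 1862 and 2824 in PKN2 KO PSCs. The WT libraries with TGF-β1 lay above every vehicle library of either genotype. The PKN2 KO libraries with TGF-β1 overlapped the vehicle libraries, and also the WT libraries with TGF-β1, since library A of the KO lay above library B of the WT. The means ran from 1774 ± 570 (SD, n = 3) in WT vehicle and 2076 ± 221 in PKN2 KO vehicle to 2643 ± 708 in PKN2 KO TGF-β1 and 4116.5 ± 1309 in WT TGF-β1, and no neighbors in this order passed the test. Of all panel counts, Fbn1 took 0.154% ± 0.0316 and 0.176% ± 0.0154 in vehicle and 0.298% ± 0.0405 and 0.191% ± 0.0122 with TGF-β1, for WT and PKN2 KO PSCs.

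With TGF-β1, Fbn1 rose by 1.21 on the log2 scale in WT PSCs (standard error 0.28; limma, adjusted p = 0.0021), or 2.32-fold. In PKN2 KO PSCs the change was 0.32 (95% interval -0.29 to 0.92, adjusted p = 0.40). The interaction was -0.90 (standard error 0.40, 95% interval -1.75 to -0.04, unadjusted p = 0.042, adjusted p = 0.49 from limma), and so missed the threshold once adjusted over the 238 genes. With the total count as scaling it passed (-0.84, adjusted p = 0.045). It also passed with the letters A to C as a replicate block (limma, adjusted p = 1.4e-06), and with that block and no trend (0.041). With the block the change in PKN2 KO PSCs passed as well (limma, adjusted p = 0.011), but not with the block and no trend (0.10). Between genotypes Fbn1 differed by 0.27 in vehicle (adjusted p = 0.62) and by -0.63 after TGF-β1 (95% interval -1.23 to -0.02, adjusted p = 0.16). The difference after TGF-β1 passed the threshold with TMM scaling (-0.82, adjusted p = 0.016), median-of-ratios scaling (-0.75, 0.031) and total count scaling (-0.64, 0.0055).

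Fbln2 encodes fibulin-2, which binds fibronectin, nidogen and tropoelastin at the border of basement membranes and elastic matrix. The gene (ENSMUSG00000064080) lies on chromosome 6, 91212455 to 91272540, on the plus strand. Its normalized counts were 28695, 15474 and 19418 in WT vehicle libraries A, B and C and 24381, 16151 and 25652 in PKN2 KO vehicle libraries. After TGF-β1 they were 35276, 17843 and 27014 in WT and 34525, 14703 and 23976 in PKN2 KO PSCs. Every group overlapped every other, and in each the library lettered B was the lowest. The means were 21196 ± 6787 (SD, n = 3), 22061 ± 5158, 26711 ± 8721 and 24401 ± 9918 in the same order of groups. The log2 fold change with TGF-β1 was 0.33 in WT (95% interval -0.42 to 1.07) and 0.09 in PKN2 KO PSCs (-0.66 to 0.83). The genotypes differed by 0.08 in vehicle and by -0.16 with TGF-β1, and the sign in vehicle turned with TMM (-0.14) and median-of-ratios scaling (-0.16). The interaction was -0.24 (95% interval -1.29 to 0.82), and changes of either sign within these intervals were not excluded. With the letters A to C as a replicate block the change in WT PSCs passed (limma, adjusted p = 0.014), but not with the block and no trend (0.081).

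Efemp2 encodes fibulin-4, which brings lysyl oxidase to tropoelastin and is essential for elastic fibers in vessels and lung. The gene (ENSMUSG00000024909) lies on chromosome 19, 5473954 to 5482517, on the plus strand, and exons of Mus81 overlap it on the opposite strand. Its normalized counts were 8890, 7838 and 8548 in WT vehicle libraries A, B and C and 8445, 6714 and 8353 in PKN2 KO vehicle libraries. After TGF-β1 they were 8873, 7192 and 8560 in WT and 9189, 7158 and 8190 in PKN2 KO PSCs. The means lay between 7837 ± 974 (SD, n = 3) for PKN2 KO and 8425 ± 537 for WT PSCs, both in vehicle. With TGF-β1 they were 8208 ± 894 for WT and 8179 ± 1016 for PKN2 KO PSCs, and all groups overlapped. The 95% intervals of its log2 fold change with TGF-β1 were -0.44 to 0.36 in WT and -0.34 to 0.46 in PKN2 KO PSCs, the narrowest of the 5 members, and its interaction was 0.10 (-0.46 to 0.67). It passed the threshold in vehicle between genotypes with median-of-ratios scaling (-0.34, adjusted p = 0.049) and with TGF-β1 in WT PSCs with total count scaling (-0.29, adjusted p = 0.032).

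**Figure D1:**
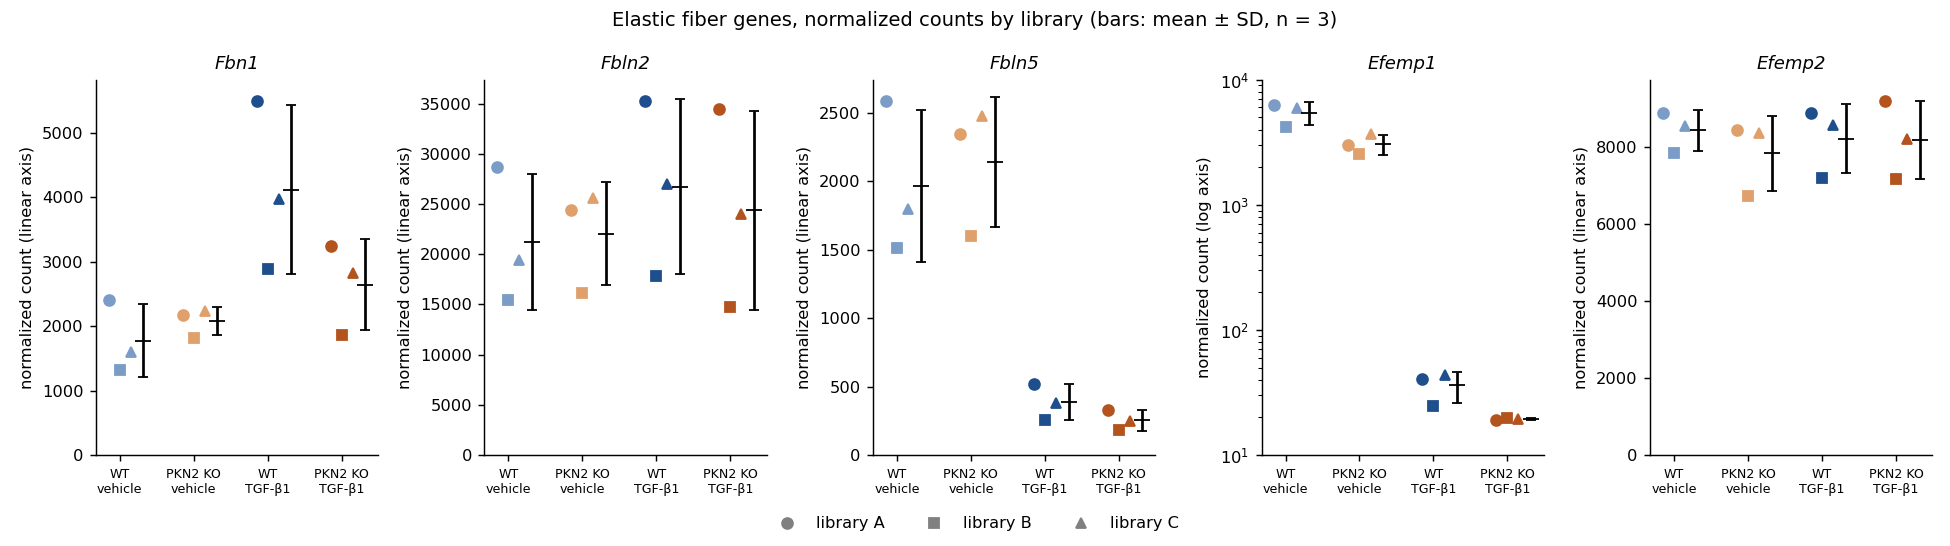
Normalized counts of the 5 members in each of the 12 libraries, by group, with the mean and SD of 3 libraries beside the points (the axis of Efemp1 is logarithmic, the others start at 0). Efemp1 lies between 19.1 and 43.2 in the 6 libraries with TGF-β1 against 2559 to 6322 in vehicle, and the squares, libraries lettered B, are the lowest of their group in most panels.

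Counts of members are read against the share of all genes tested. With TGF-β1, 3 of 5 members passed the test in WT PSCs (1 higher and 2 lower), where 50.8% of the 238 genes did, with 23.9% higher and 26.9% lower. In PKN2 KO PSCs 2 of 5 passed, both lower, where 48.7% of genes did, with 19.7% higher and 29% lower. Between genotypes 1 of 5 was lower in vehicle, where 13.9% of genes passed, with 10.9% higher and 2.94% lower, and 1 of 5 was lower after TGF-β1, where 15.1% passed, with 8.82% higher and 6.3% lower. No member passed the interaction in limma, where 3.36% of genes did, with 0.84% higher and 2.52% lower (1 member, Fbn1, had an unadjusted p under 0.05), and none did with edgeR or DESeq2. Shares of 5 genes are coarse, and nothing particular to the members is read from them. By level alone, groups did not overlap for 3 members with TGF-β1 in WT PSCs (55.9% of genes), for 2 in PKN2 KO PSCs (52.9%), and for 1 between genotypes both in vehicle (32.4%) and after TGF-β1 (28.2%). The median log2 fold change over all genes tested was 0.21 between genotypes in vehicle with the authors' factors and -0.00 with TMM scaling, and the median of the 5 members was 0.08, so differences of that size in vehicle depend on the scaling.

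**Figure D2:**
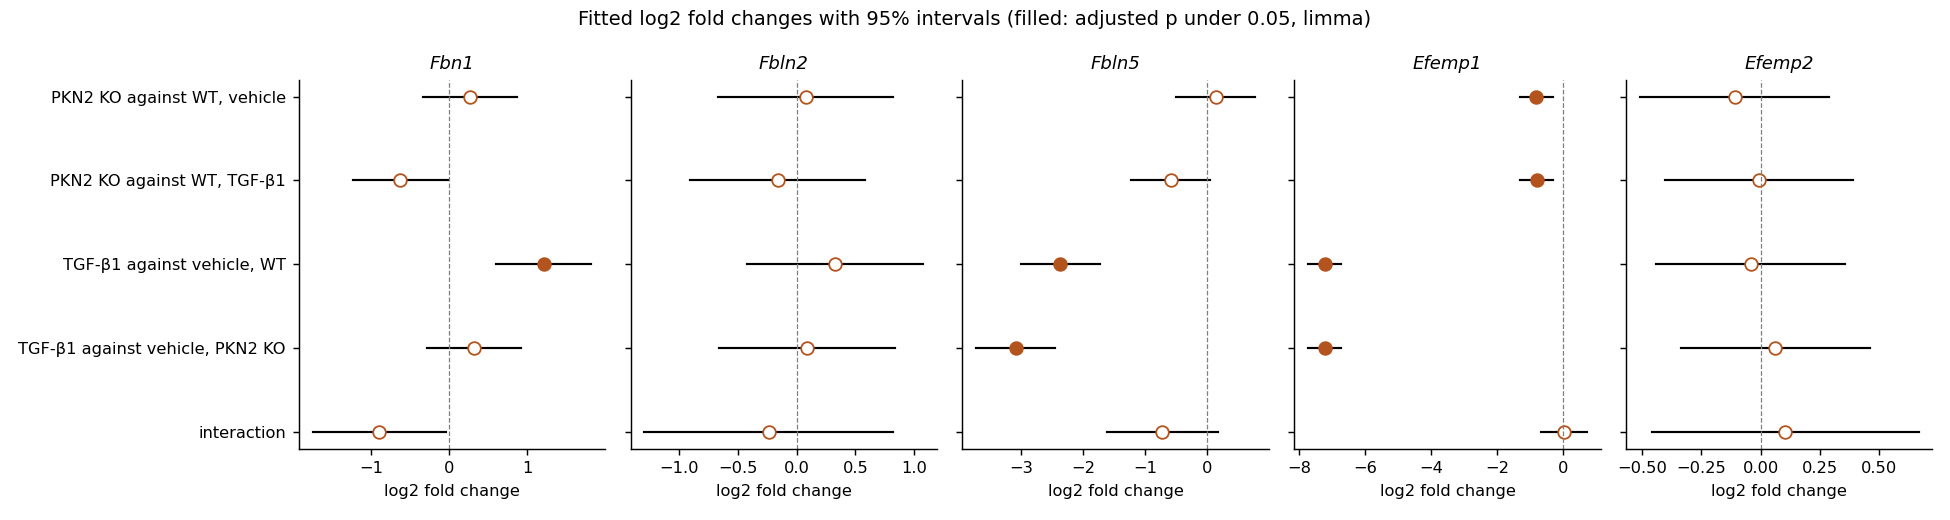
Fitted log2 fold changes (horizontal axis, with a range of its own in each panel, on the scale of normalized count + 1) of each member in the 4 comparisons and the interaction, with 95% intervals as lines and filled points for an adjusted p under 0.05. The changes of Efemp1 with TGF-β1 (-7.22 in both genotypes) and of Fbln5 (-2.37 and -3.09) stand clear of 0, while every interval of Fbln2 and Efemp2 spans 0.

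To set the scaling aside, members were divided by one another within each library, an approach chosen after the values were seen. The panel amplifies each gene with its own primers, so the size of a ratio is no comparison of levels between genes, and differences between libraries in 1 ratio are what can be read. An exact two-sided permutation test of 3 against 3 libraries cannot go below p = 0.10, so these ratios are given as values. The ratio of Fbn1 to Fbln2 was 0.0841, 0.0850 and 0.0821 in WT vehicle libraries A, B and C, and 0.0893, 0.113 and 0.0869 in PKN2 KO vehicle libraries. After TGF-β1 it was 0.156, 0.162 and 0.147 in WT and 0.0939, 0.127 and 0.118 in PKN2 KO PSCs. The KO libraries thus lay above the WT libraries in vehicle and below them after TGF-β1, without overlap in either condition. In WT PSCs this ratio was 1.85-fold higher with TGF-β1, and in PKN2 KO PSCs it was 1.17-fold higher with overlapping libraries.

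Between Fbn1 and Fbln5 the genotypes gave overlapping ratios while the treatments were far apart. The ratio of Fbn1 to Fbln5 lay between 0.871 and 0.932 in WT vehicle and between 0.900 and 1.14 in PKN2 KO vehicle libraries. After TGF-β1 it lay between 10.4 and 11.3 in WT and between 9.76 and 11.5 in PKN2 KO libraries. The genotypes overlapped in both conditions, and the ratio was 12.0-fold higher with TGF-β1 in WT and 10.6-fold higher in PKN2 KO PSCs. The ratio of Fbln2 to Fbln5 was 10.2 to 11.1 and 10.1 to 10.4 in WT and PKN2 KO vehicle libraries, and 67.6 to 70.6 and 81.0 to 104 after TGF-β1, where the genotypes did not overlap.

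Efemp1 and Efemp2 diverged in every comparison. The ratio of Efemp1 to Efemp2 was 0.530 to 0.711 in WT vehicle libraries and 0.356 to 0.440 in PKN2 KO vehicle libraries. After TGF-β1 it was 0.00341 to 0.00505 in WT and 0.00208 to 0.00276 in PKN2 KO libraries. No group overlapped another, with a PKN2 KO ratio 1.63-fold below that of WT in vehicle and 1.78-fold below it after TGF-β1. Over the 10 ratios that 5 members allow, groups did not overlap for 5 ratios between genotypes in vehicle, 4 after TGF-β1, 9 with TGF-β1 in WT PSCs and 7 in PKN2 KO PSCs. Over the 23653 ratios of 2 genes among the 218 tested genes above 0 in all 12 libraries, the shares that did not overlap were 35.5%, 40%, 62.3% and 62.4% in the same order. The ratios share members and are not independent of each other, and nothing particular to the members is read from these counts.

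**Figure D3:**
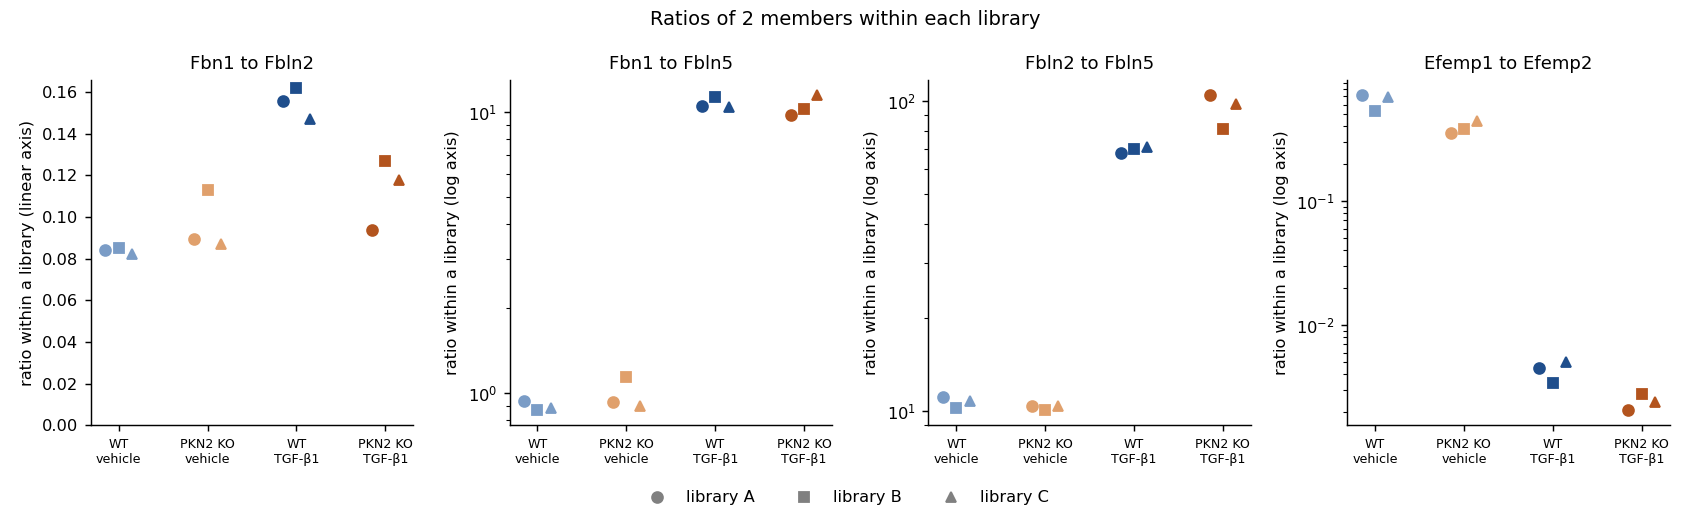
Ratios of 2 members within each of the 12 libraries by group, with 1 point per library (the first axis is linear from 0, the others are logarithmic). Fbn1 to Fbln2 reaches 0.147 to 0.162 in WT libraries with TGF-β1 and 0.0939 to 0.127 in PKN2 KO libraries, while Fbn1 to Fbln5 overlaps between genotypes in both conditions.

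Correlations over the 12 libraries are given as a description, since the libraries share treatment, letter and scaling factor. Fbln5 and Efemp1 had a Pearson correlation of 0.97 on the log2 scale, and Fbln2 and Efemp2 of 0.86. Fbn1 correlated with Fbln2 at 0.77 and with Efemp1 at -0.64. The 3 genes most like Fbn1 by the same measure were Itgav (0.95), the αv integrin chain that binds matrix proteins, Postn (0.94), the matricellular protein periostin, and Thbs1 (0.93), a matricellular protein that can activate latent TGF-β. In WT PSCs Itgav rose with TGF-β1 by 0.83 on the log2 scale, Postn by 0.96 and Thbs1 by 1.54. Among them Thbs1 had a lower level in PKN2 KO PSCs after TGF-β1 (-0.90; limma, adjusted p = 0.011), whereas Itgav (-0.20, 0.73) and Postn (-0.28, 0.61) did not pass the test.

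Fbln2 was most like Col1a1 (0.98), Sparc (0.96) and Emilin1 (0.94), abundant or elastin-associated matrix genes that passed the test in no comparison. Fbln5 was most like Nid1 (0.99), the basement membrane linker nidogen-1, the laminin-binding integrin chain Itga3 (0.98) and Lgals9 (0.98), a secreted galectin. Efemp1 was most like Vcam1 (0.99), an adhesion receptor for leukocytes, Lgals9 (0.99) and Itga3 (0.99). With TGF-β1 the log2 fold changes in WT and then PKN2 KO PSCs were -4.28 and -4.40 for Vcam1, -2.58 and -2.51 for Lgals9, -1.75 and -2.12 for Itga3, and -1.33 and -1.80 for Nid1, all past the threshold. None of these 4 genes differed between genotypes past the threshold, where Vcam1 had log2 fold changes of -0.50 in vehicle (adjusted p = 0.25) and -0.62 after TGF-β1 (adjusted p = 0.12). Efemp2 was most like the protocadherins Pcdhgc5 (0.95) and Pcdhgc3 (0.90), which share exons, and Sparc (0.90).

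Other panel genes related to elastic fibers were taken as 3 lists with 28 genes in all, of which 21 were tested. Of these, 11 of the 28 and 10 of the 21 were matrix partners and integrin receptors, a list that reaches beyond the fiber itself. With TGF-β1, WT PSCs had 9 of the 21 higher and 3 lower, and PKN2 KO PSCs had 5 higher and 5 lower. In both genotypes these counts hold Adamtsl2 among the higher and Itgb8 among the lower. Each met the filter on low values only through the condition in which it was high. Of the 9 higher in WT PSCs, 5 were matrix partners and integrin receptors. Over all genes tested, 23.9% were higher and 26.9% lower in WT and 19.7% higher and 29% lower in PKN2 KO PSCs. Between genotypes 3 were higher in PKN2 KO PSCs in vehicle, and 1 was higher and 1 lower after TGF-β1, against 10.9% of all genes higher in vehicle and 8.82% higher and 6.3% lower after TGF-β1. The 7 not tested held few counts, with at most 11 counts in any library for Mfap5, 8 for Mfap4, 5 for Itgb6, 4 for Mfap2 and 2 for Thsd4, and none for Fbn2 and Adamts17. For a gene with no count, up to 3 counts of at least 1074095 per library would have been compatible with this depth, and this limit covers counting error only. The Mfap genes encode microfibril-associated proteins that accompany fibrillin.

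Among 9 genes of assembly and crosslinking, 5 were tested. Lox, the lysyl oxidase that crosslinks elastin and collagen, rose with TGF-β1 in WT PSCs, from 11754 ± 2613 (SD, n = 3) to 21852 ± 6057 normalized counts, a log2 fold change of 0.88 (limma, adjusted p = 0.012). In PKN2 KO PSCs it went from 15092 ± 2489 to 23349 ± 5866, a change of 0.61 that did not pass the test (adjusted p = 0.074). Its interaction did not pass either (-0.27; limma, adjusted p = 0.89). The WT call was lost without vehicle library B or TGF-β1 library A (up to 0.060). Loxl1, needed to renew elastic fibers in adult tissue, fell by 0.48 with TGF-β1 in PKN2 KO PSCs (adjusted p = 0.012, and 0.074 without TGF-β1 library C), and the change was -0.14 in WT PSCs. The interaction of Loxl1 did not pass (-0.34; limma, adjusted p = 0.57). Loxl2, a collagen and elastin crosslinker of the same family, had a lower level in PKN2 KO PSCs after TGF-β1. Its normalized counts were 1239, 519 and 767 in WT and 420, 199 and 363 in PKN2 KO libraries A, B and C, 2.53-fold lower (-1.34 on the log2 scale; limma, adjusted p = 0.018). The Loxl2 call was lost without WT library A or C or PKN2 KO library B (up to 0.068), and its interaction did not pass (-1.15, adjusted p = 0.49). Fbln1 and Emilin1 passed the test in no comparison. The median over the 5 was 0.33 with TGF-β1 in WT PSCs, where that over all genes tested was 0.00, and 0.06 in PKN2 KO PSCs, against -0.14.

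The fibrillin-associated ADAMTS and ADAMTS-like genes, secreted proteins of which several bind microfibrils, moved in both directions. Of 8 genes 6 were tested, and with TGF-β1 3 were higher and 2 lower in WT PSCs, with 2 higher and 2 lower in PKN2 KO PSCs. Their median change was 0.57 in WT and -0.07 in PKN2 KO PSCs, against 0.00 and -0.14 over all genes tested. Adamtsl2, which binds fibrillin-1 and is mutated in geleophysic dysplasia, had normalized counts of 2.36, 2.03 and 1.97 in WT vehicle libraries, from 2 or 3 counts each, and 12.9, 7.07 and 9.54 in PKN2 KO vehicle libraries. After TGF-β1 it had 97.9, 75.9 and 107 in WT and 401, 290 and 326 in PKN2 KO libraries. All 4 comparisons passed the test (adjusted p = 0.0016 and 7.0e-04 between genotypes in vehicle and after TGF-β1, from limma), and no fold against WT vehicle is given because of its few counts. Adamtsl2 met the filter on low values only through its libraries with TGF-β1, where it was high. The filter thus favored its calls with TGF-β1, and its genotype call in vehicle rests on counts near the floor. After TGF-β1 Adamtsl2 was 3.60-fold higher in PKN2 KO PSCs, and it kept this call without any 1 library and under every alternative that tested it. Adamtsl4, mutated in displacement of the lens, went the other way, from 442 ± 52.3 to 52.4 ± 15.0 in WT and from 378 ± 21.5 to 59.9 ± 8.56 in PKN2 KO PSCs, with changes of -3.09 and -2.64.

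Adamtsl3, a further member of the family, had an interaction of genotype and TGF-β1 past the threshold (-1.16; limma, adjusted p = 0.026), which it kept in 3 of 12 fits with 1 library left out. Its normalized counts were 275, 180 and 208 in WT vehicle libraries and 377, 354 and 340 in PKN2 KO vehicle libraries. After TGF-β1 they were 747, 537 and 663 in WT and 546, 426 and 450 in PKN2 KO libraries. The KO libraries lay above the WT libraries in vehicle, and after TGF-β1 the KO mean was the lower one, with the highest KO library just above the lowest WT library. In vehicle the KO was higher (0.71; limma, adjusted p = 0.018), a call lost with median-of-ratios scaling, without the 4 libraries lettered B, and without WT library B or C or KO library A or C (up to 0.080). TGF-β1 raised the gene in WT PSCs (1.56, adjusted p = 5.42e-06), and the change in PKN2 KO PSCs was 0.40 (adjusted p = 0.096). Adamts6 rose in both genotypes (2.17 in WT, 1.02 in PKN2 KO PSCs), whereas Adamtsl5 fell in both (-1.07 and -0.74), while Adamts10, which binds fibrillin-1, passed the test in no comparison. The KO calls of Adamts6 and Adamtsl5 were lost with TMM, median-of-ratios and total count scaling and without the trend, and that of Adamtsl5 also without the 4 libraries lettered B. They were also lost without single libraries, for Adamts6 without vehicle library A or C or TGF-β1 library B or C (up to adjusted p = 0.12) and for Adamtsl5 without any of the 6 (up to 0.093).

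Of 11 matrix partners and integrin receptors, 10 were tested, with a median change with TGF-β1 of 0.59 in WT and -0.00 in PKN2 KO PSCs. Over all genes tested these medians were 0.00 and -0.14, and none of the 10 passed the interaction. With TGF-β1, 5 were higher in WT PSCs and 3 in PKN2 KO PSCs, among which were the fibronectin receptor chains Itga5 (2.10 and 1.86 on the log2 scale) and Itgb1 (1.19 and 1.08) and the partner of αv, Itgb3 (3.50 and 2.53). Itgb3 was also higher in PKN2 KO PSCs in vehicle (1.25; limma, adjusted p = 0.038), at 83.2, 82.7 and 122 normalized counts against 70.8, 29.1 and 28.6 in WT. That call was lost with TMM and median-of-ratios scaling, without the trend, with edgeR and without the libraries lettered B, and in 5 of 6 fits without 1 vehicle library, all but that without WT library A (up to adjusted p = 0.16). Vcan, the proteoglycan versican that binds fibrillin, rose with TGF-β1 in WT PSCs (0.72), as did Itgav (0.83), and neither passed the test in PKN2 KO PSCs. A genotype difference in this response was not shown, with interactions of -0.54 for Vcan (limma, adjusted p = 0.57) and -0.42 for Itgav (0.80). Vcan lost its call without vehicle library B or C or TGF-β1 library C (up to adjusted p = 0.060), and Itgav without vehicle library B or C or TGF-β1 library A or C (up to 0.12). Itgb8 was called lower with TGF-β1 in both genotypes on few counts. It met the filter on low values only through vehicle libraries, where it was high. The filter thus favored this direction, and nothing is read from these calls. Its normalized counts went from 11.8, 7.43 and 7.89 to 3.54, 0 and 1.92 in WT and from 23.4, 22.6 and 21.2 to 2.74, 6.02 and 0 in PKN2 KO libraries, and the WT call was lost without the 4 libraries lettered B and without vehicle library A or TGF-β1 library B (up to adjusted p = 0.10). Itga8 fell in PKN2 KO PSCs (-1.31), a call lost without vehicle library C or TGF-β1 library B (up to 0.062), and its interaction did not pass (-0.85; limma, adjusted p = 0.61). Hspg2, Fn1 and Itgb5 passed the test in no comparison.

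**Figure D4:**
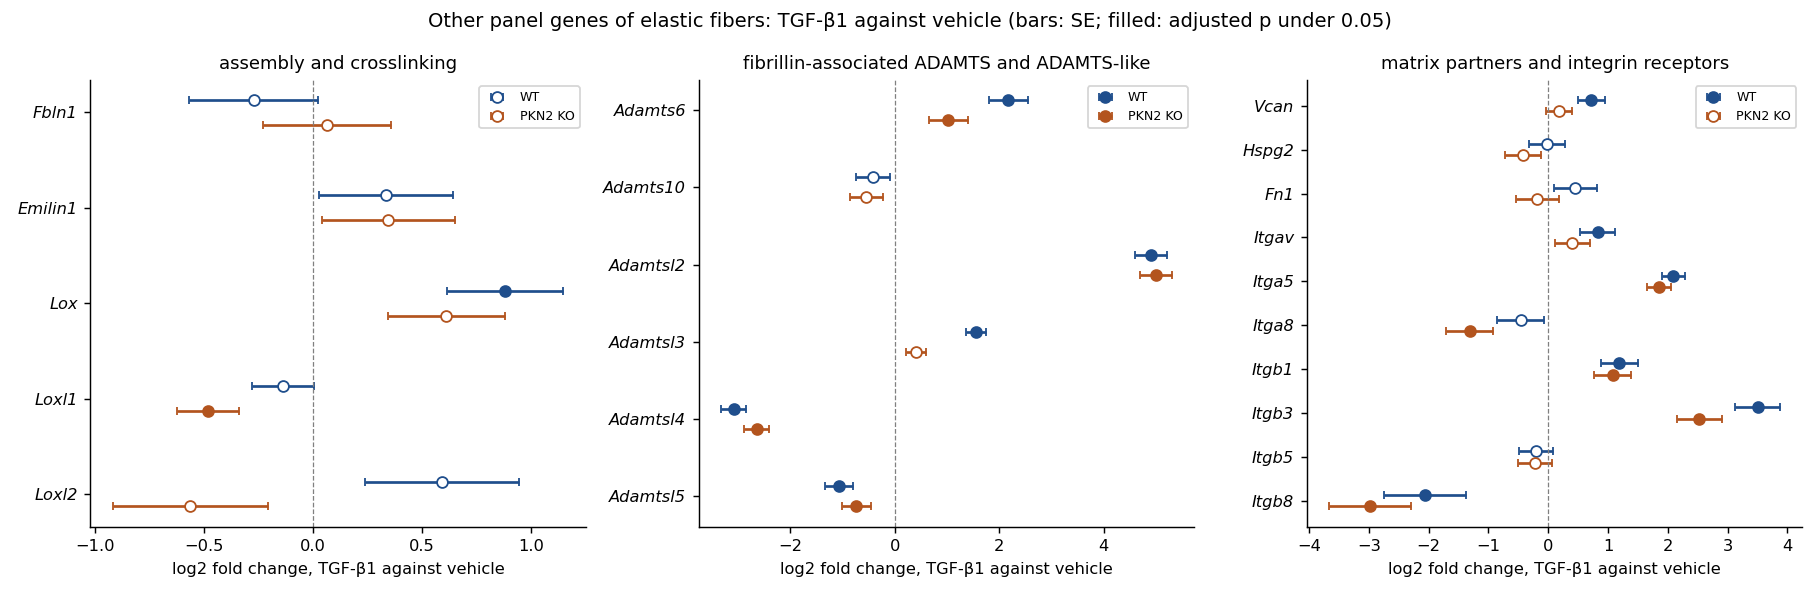
Log2 fold change with TGF-β1 (horizontal axis) of the 21 other listed genes tested, matrix partners and integrin receptors among them, in WT (blue) and PKN2 KO (orange) PSCs. Bars are standard errors, and filled points have an adjusted p under 0.05. Adamtsl2, whose WT vehicle level rests on 2 or 3 counts per library, and Itgb3 (3.50 and 2.53) lie farthest to the right, and Adamtsl4 (-3.09 and -2.64) and Itgb8 farthest to the left.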

How the data were processed

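RNA of WT and PKN2 KO PSCs, 3 libraries per group, was profiled by the authors with the QIAseq panel of mouse ECM and cell adhesion genes, and reads per gene came from the vendor's pipeline. The submitters' processing notes name STAR, DESeq2 1.32 and mm10; whether molecular identifiers were counted is not given in the sources used here. The authors deposited counts and normalized counts, a signal in which the counts of a library are scaled by a single factor from reference genes. Normalized counts of the vehicle libraries and of the TGF-β1 libraries were deposited separately, and each comparison of TGF-β1 with vehicle spans both sets. Whether the factors of both sets were derived together was not tested. In the table of counts 6 of 12 columns carry a repeated name and were not used. Each library's values were multiples of a fixed step (all 420 genes within 0.01), and reads recovered from it were equal to the deposited counts in the 6 usable columns.

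Genes that reached 10 normalized counts in 3 or more libraries entered limma 3.58.1 (R 4.3.3) on log2(normalized count + 1), with 1 mean per group, trend and robust estimation, and Benjamini-Hochberg adjustment over 238 genes at 0.05. Scalings, edgeR 4.0.16 and DESeq2 1.42.0 were alternatives on the recovered reads. The code was tested on simulated data. The members, the gene lists and the tests were chosen with earlier results of these data known. All members were named, listed genes where called, and for each member the 3 most correlated genes. In the main test letters A to C were treated as names only.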

Additional observations from a re-analysis of the deposited data

Results flagged for a closer look

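The response of Adamtsl3 to TGF-β1 differed between the genotypes by a test of the difference itself. Its interaction term came to -1.16 in log2 units (standard error 0.26; limma over 238 genes, adjusted p = 0.026), with a change of 1.56 in WT and 0.40 in PKN2 KO PSCs. All 3 WT libraries with TGF-β1 lay above the 3 WT vehicle libraries, and all 3 PKN2 KO libraries with TGF-β1 lay above the 3 PKN2 KO vehicle libraries. The interaction lay between -1.32 and -1.02 over the alternatives. It missed the threshold without the trend of the variance and without the 4 libraries lettered B. It stayed past the threshold in 3 of 12 fits with 1 library left out, and its adjusted p reached 0.088 in the others, which left out a WT vehicle library (B or C), any PKN2 KO vehicle library, WT TGF-β1 library A or C, or PKN2 KO TGF-β1 library B or C.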

How the results depend on the processing

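Over 26 alternatives, of which 12 left out 1 library, Fbn1, Fbln5 and Efemp1 kept their calls with TGF-β1 in WT PSCs (0.96 to 1.46, -2.62 to -2.10 and -7.47 to -6.98 on the log2 scale), as did Fbln5 and Efemp1 in PKN2 KO PSCs (-3.31 to -2.87 and -7.41 to -6.96). Differences between genotypes depended more on the setting. In vehicle 2 members passed with median-of-ratios scaling and 0 without the trend. After TGF-β1 3 passed with each of the 3 other scalings (TMM, total count, median of ratios) and 0 with edgeR and DESeq2. For the interaction 1 passed with total count scaling. With 1 library left out, 0 to 1 passed in vehicle and 0 to 1 after TGF-β1. The cause was not tested. Over all genes, calls after TGF-β1 were 55 with TMM, 55 with median-of-ratios and 65 with total count scaling, against 36, and interactions were 4 without the trend and 1 without the libraries lettered B, against 8. With 1 library left out, calls were 18 to 38 in vehicle and 0 to 11 for the interaction. In vehicle 26 genes were higher and 7 lower, against 20 and 13 with TMM and 19 and 20 with median-of-ratios scaling. After TGF-β1 21 were higher and 15 lower, against 21 and 34 with TMM and 25 and 30 with median-of-ratios scaling, and with TGF-β1 in WT PSCs 57 and 64, against 54 and 95 with total count scaling.

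Small differences that did not pass the test turned sign. In vehicle between genotypes Fbln2 had -0.14 and Fbln5 -0.080 with TMM and -0.16 and -0.10 with median-of-ratios scaling. With TGF-β1 in PKN2 KO PSCs Fbln2 had -0.11 and Efemp2 -0.14 with total count scaling. The interaction of Efemp1 was -0.0079 with a pseudocount of 0.5, -0.038 with edgeR, -0.040 with DESeq2 and -0.19 without the 4 libraries lettered B, an alternative chosen after seeing the data. With 1 library left out, the ranges that spanned 0 were, between genotypes, -0.13 to 0.32 for Fbln2 and -0.037 to 0.35 for Fbln5 in vehicle, and -0.45 to 0.16 for Fbln2 and -0.10 to 0.086 for Efemp2 after TGF-β1. With TGF-β1 they were -0.10 to 0.051 for Efemp2 in WT PSCs, and -0.20 to 0.41 for Fbln2 and -0.046 to 0.15 for Efemp2 in PKN2 KO PSCs. For the interaction they were -0.53 to 0.086 for Fbln2, -0.24 to 0.19 for Efemp1 and -0.0041 to 0.20 for Efemp2.

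The letters did not meet the rule for pairing, since same-lettered libraries had correlated deviations from -0.23 to 0.70 (mean 0.39, over 0.1 in 13 of 18 pairs), and 7 of 12 libraries correlated best with their own letter in each other group. By letter the correlations ran from 0.35 to 0.70 for A, from 0.60 to 0.68 for B and from -0.23 to 0.14 for C. With the letter as a replicate block, 3 members passed after TGF-β1 between genotypes (Fbn1, Fbln5 and Efemp1) and 2 the interaction (Fbn1 and Fbln5). With the block and no trend the same 3 passed between genotypes and 1 the interaction (Fbn1). The block also brought calls with TGF-β1 for Fbn1 in PKN2 KO PSCs and Fbln2 in WT PSCs, both lost with the block and no trend. Calls over all genes with the block were 87 in vehicle, 101 after TGF-β1 and 42 interactions, and 71, 90 and 17 with the block and no trend. The block gave infinite prior degrees of freedom for 197 of 238 genes.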
